A study of Mus musculus with 5 samples.

Results

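Genes for the enzymes that add methyl groups to histone lysines and take them off were followed from mouse spermatocytes to spermatids. They were picked from the deposited table by gene symbol, with a pattern for the KDM, SETD, SUV, PRDM, MLL/KMT2, EHMT, EZH, WHSC1, DOT1L, SMYD and NSD names, which matched 63 of 56324 rows and 60 symbols. Of the symbols 3, Kdm5a, Smyd4 and Whsc1, have a long row and a short second row. Nsdhl, a sterol synthesis gene, matched by its letters alone, which leaves 59 genes of these families. Setd1a and Setdb2 share rows with neighbouring genes and were left out by the rule. All cells came from C57Bl/6 males aged 12 weeks and were separated by Sta-put, a sedimentation at unit gravity. There were 2 samples of spermatocytes, the cells in meiosis, and 3 of spermatids, the haploid cells that follow, with no treatment or engineered allele named. Nothing in the labels says which animals gave which sample, so every p-value below reflects sample-to-sample spread that may be technical. Values are counts per gene scaled by library size factors, as the authors deposited them, and are called normalized counts here.

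Histone lysine methylation marks the state of chromatin. Methylation of lysine 4 of histone H3 (H3K4) is found at active promoters and enhancers, that of H3K36 and H3K79 along transcribed genes, that of H3K27 on genes held silent by Polycomb, and that of H3K9 and H4K20 on heterochromatin. Methyltransferases, mostly of the SET domain type, write these marks, and demethylases of the LSD1 and JmjC types remove them. In male germ cells this system acts on meiotic recombination and sex chromosome silencing, and later on the chromatin that protamines replace.

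The libraries held 52784231 to 84361908 reads, recovered from the deposited values. Spermatid replicate 1 stood apart from the other spermatid samples when counts were set against total reads. On that scale the ratio of its count differences to sampling noise was 13.3 and 13.2 against them, and 5.69 between them. The ratio was not computed with the size factors. Of 11 spermatid markers found, 11 were higher in spermatids, with a summed level of 2147190 in spermatid replicate 1 and 823910 and 785756 in replicates 2 and 3. Their spermatocyte levels were 1.06% to 1.82% of the spermatid levels, or 0.997% to 3.73% without spermatid replicate 1. Of 12 spermatocyte markers 8 were lower in spermatids and 2 higher (summed level 200996 and 181853 against 129569 to 197397). Their spermatocyte levels were 19.7% to 1824% of the spermatid levels, with a median of 219%. Sycp3 went from a mean of 10232 to 3227, and Pgk2, which was higher in spermatids, from 21680 to 110014. Whether spermatid samples held spermatocyte RNA was not tested. Spermatocyte libraries also carried Sertoli cell transcripts. The summed level of 13 Sertoli markers was 58857 and 77539 in spermatocyte samples and 1898 to 2440 in spermatids, and 12 of the 12 tested were lower in spermatids, as were 7 of 7 Leydig cell markers (summed level 2793 and 3534 against 135 to 339). Markers of myoid, endothelial, macrophage and blood cells went the other way, with 6 of 9 higher in spermatids and 1 lower (summed level 501 and 426 against 1374 to 2217). Of 9 tested spermatogonial markers, 5 were higher and 2 lower in spermatids (summed level 1448 and 1635 against 1983 to 2669). No marker of these 4 lists was at 0 reads in either group, and the part of these other cells in the results below was not tested.

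The histone methylation genes changed in both directions and seldom by much. Of the 59 genes, 56 passed a mean of at least 10 and were tested. Of these 42 were called in either direction (limma, Benjamini-Hochberg adjusted p under 0.05), or 75.0%, where 77.1% of all 28370 rows tested were. In spermatids 22 were higher and 20 lower, or 39.3% and 35.7%, where 40.6% and 36.5% of all rows were. With short rows and Nsdhl, 24 of 59 tested rows were higher and 21 lower. On the log2(value + 1) scale, the median log2 fold change of the 56 genes, spermatids over spermatocytes, was 0.15, against 0.07 over all rows. The median size of the change without its sign was 0.76, against 1.60 for all rows and 1.29 for rows with a gene symbol. A called log2 fold change of at least 2 in size was found for 8 of the 56 genes, 14.3%, with 5 upward (24.6% of all rows) and 3 downward (17.6%). Prdm16 is counted among these 5, the 22 higher genes and the 11 kept genes below. It passed the minimum mean of 10 through its spermatid values alone, so it had to differ. In either direction it was found for 42.2% of all rows, 35.1% of rows with a symbol, and 33.2% of rows with a symbol and a mean of at least 100. The spermatocyte and spermatid values were fully apart for 50 of the 56 genes, 89.3%, against 85.8% of all rows, with 27 genes higher (44.3% of all rows) and 23 lower (41.5%). The split of calls moved with the scaling: 11 genes were higher and 27 lower with libraries rescaled to equal totals, and 12 and 26 after quantile normalization. These settings moved the median of all rows from 0.07 to -0.57 and -0.42, so small changes below are relative to the deposited scaling. They are called the other scalings below. Scaling by TMM factors changed no call of the 59 tested rows. In all 15 alternative settings, 11 of the 22 higher genes and 16 of the 20 lower ones were called in the same direction. Shares of all rows were not computed under the alternative settings. These counts therefore cannot show whether falls in these families held better than rises.

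**Figure D1:**
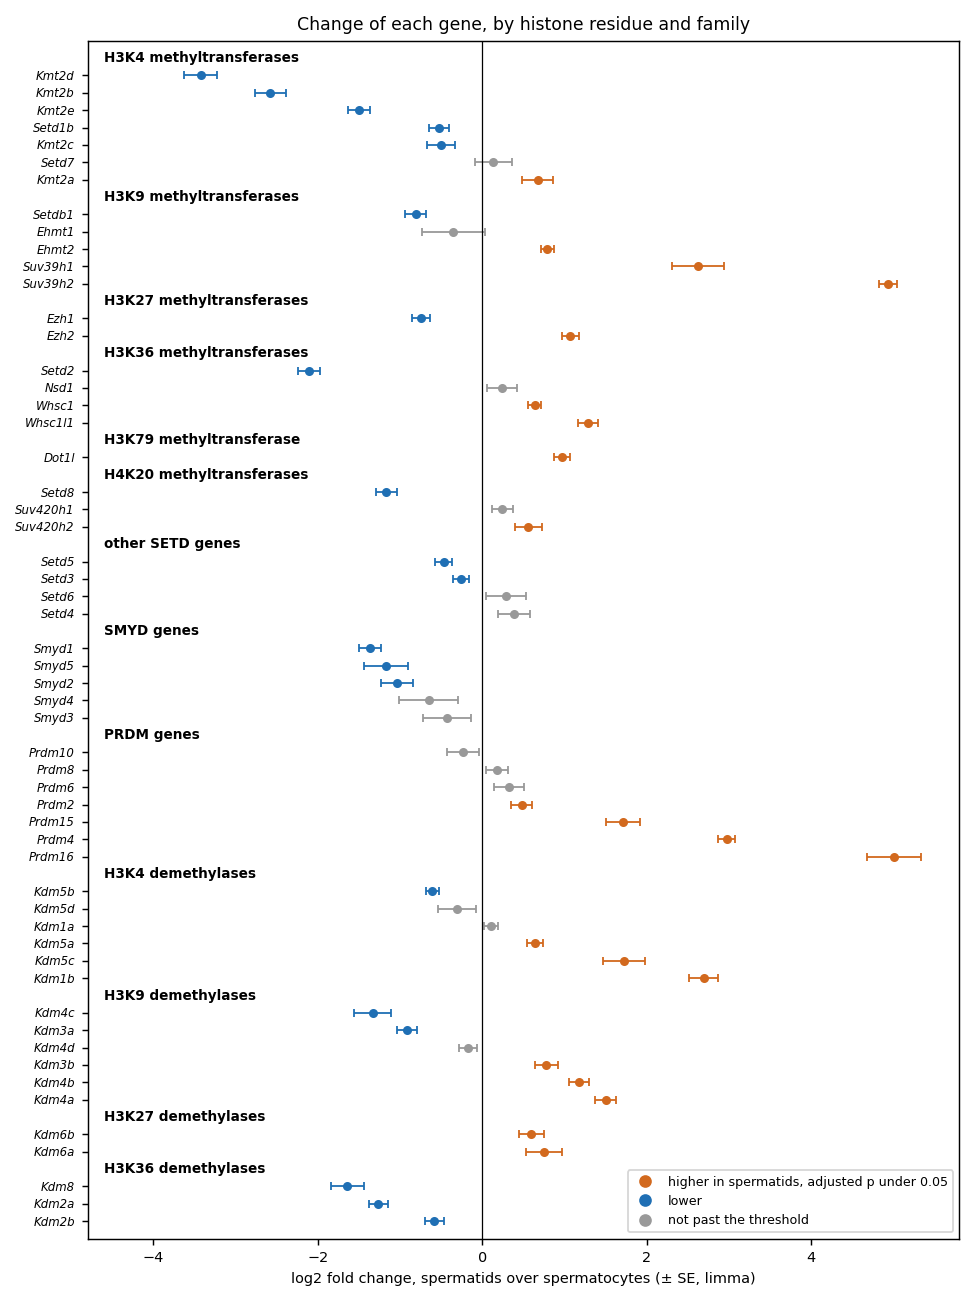
Log2 fold change, spermatids over spermatocytes, with its standard error from limma for 55 of the tested genes, grouped by the histone residue or family. Kmt2d (-3.43) lies farthest to the left and Prdm16 (5.01) and Suv39h2 (4.93) farthest to the right, and most genes lie within 2 units of zero. The Prdm16 value depends on the pseudocount and is 3.87 with a pseudocount of 10, where Suv39h2 is 4.85.

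Among the writers of H3K9 methylation, the 2 SUV39H enzymes, which trimethylate H3K9 at pericentric heterochromatin, were the members that rose most. Suv39h2 was at 148 and 152 normalized counts in the spermatocyte samples and at 4398, 4944 and 4510 in the spermatid samples. Both spermatocyte samples were low and all 3 spermatid samples high, a 30.8-fold difference with a log2 fold change of 4.93 ± 0.11 (SE, limma adjusted p = 3.7e-07). Its row spans chromosome 2 from 3455815 to 3474986 (mm10). The spermatocyte level was 3.25% of the spermatid level, above the highest of the spermatid markers (1.82%). Without spermatid replicate 1 it was 3.17%, between the marker Prm1 (2.69%) and the highest marker, Prm2 (3.73%), where the marker median was 1.99%. Suv39h1, on the X chromosome from 8061171 to 8074760, had 51.7 and 83.1 in spermatocytes and 335, 566 and 361 in spermatids, a 6.24-fold difference (log2 fold change 2.62 ± 0.31, limma adjusted p = 0.00025). Ehmt2, the gene of G9a, which mono- and dimethylates H3K9 in euchromatin, had 13772 and 13520 in spermatocytes and 24222, 23410 and 23132 in spermatids. The groups did not overlap and the log2 fold change was 0.79 ± 0.08 (limma adjusted p = 0.00011), a call that ended with equal totals (limma adjusted p = 0.19) and after quantile scaling (0.78). The partner gene Ehmt1, the gene of GLP, was at 64.6 and 91.9 against 38.8, 77.3 and 72.3, with overlapping groups (limma adjusted p = 0.42). Setdb1, whose product trimethylates H3K9 at silenced repeats, fell from 1970 and 1885 to 974, 1217 and 1118 (log2 fold change -0.81 ± 0.13, limma adjusted p = 0.00097). In all, 3 of the 5 tested H3K9 writers rose and 1 fell, where 40.6% of all rows were higher and 36.5% lower. The counts were 2 and 1 under both other scalings.

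Promoter sequences were at hand in RefSeq (GRCm38.p6, the same assembly as mm10) for 41 of the 56 genes, and the 4 below belong to the SUV39H pair and to 2 writers that fell steeply, Kmt2d and Setd2. Each shows up to 250 bases before the most upstream RefSeq start, 5′ to 3′ on the strand of the gene. For Suv39h2 the last 45 bases are left out because GENCODE vM21 places them in its first exon. Capitals mark GGGCGG (the GC box) and TGACG, which is part of TGACGTCA (the full cyclic AMP response element), on either strand, and neighbouring matches may overlap.
Suv39h2: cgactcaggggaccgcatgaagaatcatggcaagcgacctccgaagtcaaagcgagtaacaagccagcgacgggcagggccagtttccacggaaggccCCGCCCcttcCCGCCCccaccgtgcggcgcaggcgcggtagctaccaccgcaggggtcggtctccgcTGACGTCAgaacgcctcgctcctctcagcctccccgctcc
Suv39h1: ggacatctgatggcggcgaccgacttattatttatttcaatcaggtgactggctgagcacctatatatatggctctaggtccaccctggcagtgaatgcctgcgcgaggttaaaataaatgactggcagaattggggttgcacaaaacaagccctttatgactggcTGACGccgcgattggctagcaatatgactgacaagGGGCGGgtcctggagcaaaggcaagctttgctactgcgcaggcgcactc
Kmt2d: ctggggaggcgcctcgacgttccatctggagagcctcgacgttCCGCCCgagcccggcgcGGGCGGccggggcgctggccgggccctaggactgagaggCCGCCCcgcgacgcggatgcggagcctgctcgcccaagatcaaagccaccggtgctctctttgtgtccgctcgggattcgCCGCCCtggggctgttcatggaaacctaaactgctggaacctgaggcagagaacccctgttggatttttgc
Setd2: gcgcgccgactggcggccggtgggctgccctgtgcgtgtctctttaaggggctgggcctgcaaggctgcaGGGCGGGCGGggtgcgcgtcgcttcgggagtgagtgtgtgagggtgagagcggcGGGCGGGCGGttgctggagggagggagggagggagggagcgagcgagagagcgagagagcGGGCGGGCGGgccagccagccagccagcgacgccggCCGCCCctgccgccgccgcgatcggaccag
They lie at chr2:3475032-3475236 (minus strand), chrX:8074761-8075010 (minus), chr15:98871206-98871455 (minus) and chr9:110532347-110532596 (plus).

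Suv39h2 was the single gene among the 41 whose 250-base window held TGACGTCA, which begins 85 bases before the start, and 1.60% of 27025 promoters of all genes held it. TGACG alone was in 11 of the 41 windows, 26.8%, against 17.8% of all promoters, and the Suv39h1 window holds one. GGCAGTT, a MYB site, was in 0 of the 41 and in 3.32% of all promoters. GGGCGG was in 26 of the 41, 63.4%, against 33.0% of all. The Setd2 window has 7 matches to GGGCGG, some overlapping, and the Kmt2d window 4. The median GC content of the 41 windows was 60.4%, against 52% for all promoters, and was 63% for the 14 windows of genes that rose and 60% for the 16 of genes that fell. A match describes letters only and no binding was measured.

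Of 7 tested genes classed as writers of H3K4 methylation, Kmt2e among them, 5 were lower in spermatids and 1 higher. Of all rows 36.5% were lower and 40.6% higher. The counts were 5 and 0 under both other scalings, and 3 and 0 without spermatocyte replicate 1. Kmt2d, which encodes MLL4, a monomethyltransferase of enhancers, had 8979 and 8994 in the spermatocyte samples and 682, 782 and 1091 in the spermatid samples. The 2 spermatocyte values were nearly equal and far above all 3 spermatid values, a 10.6-fold difference with a log2 fold change of -3.43 ± 0.20 (limma adjusted p = 8.2e-06). Its row covers chromosome 15 from 98831669 to 98871183, with no overlapping row. Kmt2b, the gene of MLL2, which methylates promoters, fell 5.90-fold, from 3235 and 3019 to 408, 610 and 573 (log2 fold change -2.58 ± 0.19, limma adjusted p = 2.5e-05). Kmt2e, a family member without clear catalytic activity, fell 2.81-fold, from 3086 and 2895 to 1231, 949 and 1012 (limma adjusted p = 7.1e-05). Setd1b, a catalytic subunit of the main trimethylating complex, fell from 4393 and 4296 to 2676, 3050 and 3367 (log2 fold change -0.53 ± 0.12, limma adjusted p = 0.0056, or 0.052 without spermatocyte replicate 1). Kmt2c, the gene of MLL3 and the closest relative of Kmt2d, went from 256 and 286 to 178, 184 and 211 (log2 fold change -0.50 ± 0.17, limma adjusted p = 0.034). Without spermatocyte replicate 1 it was not called (limma adjusted p = 0.075), nor without spermatocyte replicate 2 (0.15) or spermatid replicate 2 (0.073). Kmt2a, the gene of MLL1, rose from 897 and 1093 to 1305, 1941 and 1562 (log2 fold change 0.67 ± 0.19, limma adjusted p = 0.014). That call ended with equal totals (limma adjusted p = 0.92), after quantile normalization (0.36), with no filter (0.073) and without spermatocyte replicate 1 (0.13). Setd7, at 121 and 156 against 136, 175 and 141, was not past the threshold (limma adjusted p = 0.61).

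**Figure D2:**
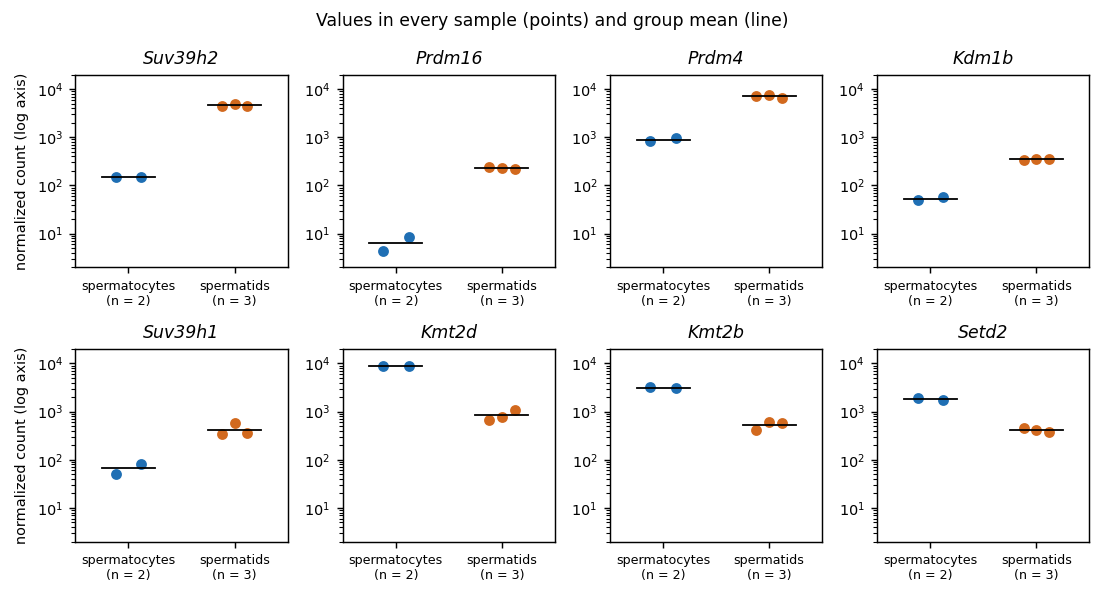
Normalized counts on a log axis in each of the 2 spermatocyte and 3 spermatid samples (points) with the group mean (line) for the 8 genes with a called log2 fold change of at least 2 in size. In each panel the groups are apart, for example 8979 and 8994 against 682 to 1091 for Kmt2d.

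Among writers of H3K27 and H3K36 methylation, genes of the same class moved in opposite directions. Of the alternative catalytic subunits of Polycomb repressive complex 2, which methylates H3K27, Ezh2 rose from 2379 and 2127 to 4966, 4787 and 4396 (log2 fold change 1.07 ± 0.10, limma adjusted p = 9.4e-05). Ezh1 fell from 1196 and 1229 to 696, 763 and 704 (log2 fold change -0.75 ± 0.11, limma adjusted p = 0.00075), and both calls held in all 15 alternatives. Among H3K36 writers Setd2, which trimethylates H3K36 and travels with RNA polymerase, fell 4.31-fold, from 1883 and 1735 to 460, 414 and 384 (log2 fold change -2.11 ± 0.13, limma adjusted p = 1.2e-05). Whsc1, the gene of the dimethyltransferase NSD2 and the most abundant of the class per kilobase of exon, rose from 14629 and 13445 to 22399, 21483 and 21444 (log2 fold change 0.63 ± 0.08, limma adjusted p = 0.00042), a change that was -0.012 with equal totals and -0.13 after quantile normalization. Its short second row, inside the gene, went from 68.9 and 48.3 to 29.5, 18.8 and 23.1. Whsc1l1, the gene of NSD3, rose 2.44-fold, from 428 and 379 to 953, 1027 and 968 (limma adjusted p = 8.9e-05). Nsd1 was at 208 and 242 against 304, 244 and 253 (limma adjusted p = 0.26).

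Dot1l, the gene of the enzyme that methylates H3K79, rose from 9101 and 8447 to 15645, 17762 and 18259 (log2 fold change 0.97 ± 0.10, limma adjusted p = 0.00013), a call that ended with equal totals (limma adjusted p = 0.080) and after quantile normalization (0.17). Among H4K20 writers Setd8, which places the first methyl group, fell from 1312 and 1169 to 532, 531 and 592 (log2 fold change -1.17 ± 0.13, limma adjusted p = 0.00015). Suv420h2, one of the enzymes that add the further groups, went from 589 and 571 to 746, 1026 and 813 (log2 fold change 0.56 ± 0.16, limma adjusted p = 0.017), with no call when either spermatocyte replicate was left out (limma adjusted p = 0.082 without replicate 1 and 0.10 without replicate 2), with no filter (0.057), with equal totals (0.71) or after quantile normalization (0.51). Suv420h1 was at 431 and 423 against 515, 518 and 481 (limma adjusted p = 0.13), with a call upward under no filter (0.020) and downward with equal totals (0.043). Of the 4 other SETD genes, Setd5 fell from 1833 and 1942 to 1420, 1314 and 1353 (limma adjusted p = 0.0043). Setd3, which encodes an actin methyltransferase rather than a histone enzyme, went from 4257 and 4189 to 3749, 3485 and 3362 (limma adjusted p = 0.037), a call lost without the eBayes trend (limma adjusted p = 0.13) and without spermatocyte replicate 1 (0.13) or 2 (0.11) or spermatid replicate 2 (0.085) or 3 (0.10). Setd4 was at 219 and 268 against 292, 292 and 374, and Setd6 at 101 and 86.5 against 102, 137 and 107, and neither was past the threshold.

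The SMYD and PRDM families, whose SET or PR domain is joined to other domains, differed in direction. Of the 5 SMYD genes, which all had negative log2 fold changes, 3 fell, where 36.5% of all rows were lower. Under both other scalings 5 fell, but these moved the median of all rows downward and the share of all rows lower was not computed there. Smyd1, best known from muscle, fell from 983 and 899 to 367, 346 and 379 (log2 fold change -1.37 ± 0.13, limma adjusted p = 8.1e-05). Smyd2 fell from 410 and 503 to 257, 218 and 193, and Smyd5 from 146 and 186 to 58.9, 86.2 and 75.5. Without spermatocyte replicate 2, Smyd5 was not called (limma adjusted p = 0.059). Smyd3 and Smyd4 had log2 fold changes of -0.43 ± 0.29 and -0.65 ± 0.36 and were not past the threshold, though Smyd4 was without spermatid replicate 2 (limma adjusted p = 0.022). Of 11 PRDM genes 8 were tested and 5 rose, where 40.6% of all rows were higher. With equal totals 3 rose and 1, Prdm10, fell, and after quantile normalization 4 rose and Prdm10 fell. Counts of families this small are given as a description.

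Prdm16, the gene of a zinc finger regulator known from brown fat and stem cells, had 4.31 and 8.72 in spermatocytes, which are 4 and 13 reads, and 242, 226 and 222 in spermatids. The spermatid values lay close together and the log2 fold change was 5.01 ± 0.33, or 3.87 with a pseudocount of 10. It passed the minimum mean of 10 through its spermatid values alone, so it had to differ and its test is not given as support. Its spermatocyte level was 2.83% of the spermatid level. Prdm4, a zinc finger regulator, rose 7.83-fold, from 838 and 955 to 7197, 7361 and 6508 (log2 fold change 2.97 ± 0.11, limma adjusted p = 1.2e-06). Prdm15 rose from 64.6 and 56.3 to 184, 206 and 209 (limma adjusted p = 0.00026). Prdm2, a retinoblastoma-binding member, went from 1839 and 1920 to 2594, 2332 and 2978 (log2 fold change 0.48 ± 0.13, limma adjusted p = 0.011), with values of -0.17 and -0.053 under the other scalings and no call without spermatocyte replicate 1 (limma adjusted p = 0.081) or 2 (0.059). Prdm8 was at 2071 and 2256 against 2088, 2589 and 2705 (limma adjusted p = 0.27, or 0.024 without spermatid replicate 1). Prdm6 and Prdm10 were also not past the threshold. There were 3 PRDM genes too low to test: Prdm13 had 0 reads in every library, which allows up to 3 reads in each, Prdm14 had 0 and 2 reads in spermatocytes and 4, 8 and 13 in spermatids, and Prdm1 had 2 and 4 against 4, 20 and 14.

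Among H3K4 demethylases, Kdm5b, a JmjC enzyme, fell from 42984 and 41493 to 27296, 28143 and 27719 (log2 fold change -0.61 ± 0.08, limma adjusted p = 0.00037). Kdm1a, the gene of LSD1, was at 12976 and 11896 against 13622, 12896 and 13517, with overlapping groups (log2 fold change 0.10 ± 0.09, limma adjusted p = 0.31). Rescaling to equal totals gave a called fall of -0.54, and quantile normalization one of -0.64. Its relative Kdm1b rose 6.55-fold, from 50.6 and 56.3 to 341, 350 and 361 (log2 fold change 2.69 ± 0.18, limma adjusted p = 1.6e-05). The Kdm1b row shares 513 bases with that of Dek, which went from a mean of 436 to 3834, and without the strand setting their reads in that stretch cannot be told apart. Kdm5a rose from 1093 and 1125 to 1783, 1694 and 1727 (log2 fold change 0.64 ± 0.10), but lost its call with equal totals (limma adjusted p = 0.99) and after quantile normalization (0.16). A short second row moved the same way, from 76.5 and 80.5 to 175, 123 and 126.

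H3K9 demethylases were led in level per kilobase by Kdm3a and Kdm4d. Kdm3a, whose product is needed for spermatid maturation, fell from 26614 and 25164 to 15659, 12264 and 13399 (log2 fold change -0.92 ± 0.12, limma adjusted p = 0.00039). Kdm4d, a short testis-enriched member of its family, stood at 20957 and 19758 against 19685, 16111 and 18667 (log2 fold change -0.17 ± 0.11, limma adjusted p = 0.19). It was past the threshold at -0.82 with equal totals and at -0.90 on quantile-normalized values. Kdm4a rose from 1198 and 1376 to 3257, 3604 and 4078 (2.83-fold, limma adjusted p = 5.5e-05), and Kdm4b from 352 and 370 to 837, 836 and 783. Kdm4c moved the other way, from 231 and 284 to 94.6, 121 and 90.1 (log2 fold change -1.33 ± 0.23, limma adjusted p = 0.0014). Kdm3b rose from 632 and 736 to 1042, 1289 and 1195, a call lost with equal totals (limma adjusted p = 0.55) and after quantile normalization (0.071).

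Both H3K27 demethylases were higher in spermatids on the deposited scale, where 40.6% of all rows were, and with TMM factors. Neither was called with equal totals or after quantile normalization. Kdm6b went from 994 and 1003 to 1253, 1675 and 1644 (log2 fold change 0.60 ± 0.15, limma adjusted p = 0.0098, or 0.070 and 0.067 without spermatocyte replicate 1 or 2), and Kdm6a from 214 and 302 to 442, 499 and 356 (0.75 ± 0.22, limma adjusted p = 0.018). The Kdm6a call also ended with no filter (limma adjusted p = 0.069), without spermatocyte replicate 1 (0.14) and without spermatid replicate 2 (0.057). All 3 genes classed here under H3K36 demethylases fell, under each scaling, where 36.5% of all rows were lower on the deposited scale. The KDM4 genes, of which Kdm4a and Kdm4b rose and Kdm4c fell, were classed under H3K9 alone. Kdm2a fell from 3413 and 3229 to 1405, 1502 and 1247 (log2 fold change -1.27 ± 0.11, limma adjusted p = 6.8e-05). Kdm2b, whose product also brings Polycomb complexes to CpG islands, fell from 8262 and 8042 to 4775, 5553 and 6089 (-0.58 ± 0.12, limma adjusted p = 0.0036). Kdm8, whose assignment to this residue is debated, fell from 299 and 328 to 86.8, 108 and 106 (-1.64 ± 0.20).

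Levels of different genes were compared per kilobase of merged exons (GENCODE vM21). On this scale Kdm4d ranked first in both cell types, at 7115 ± 296 normalized counts per kb in spermatocytes (SD, n = 2) and 6346 ± 644 in spermatids (SD, n = 3). Kdm3a, Kdm5b, Ehmt2 and Kdm1a followed in spermatocytes, at 3148 ± 125, 2551 ± 63.7, 2486 ± 32.5 and 2401 ± 147, and the last 3 of these lie within their spread of each other. In spermatids Ehmt2 (4297 ± 103), Kdm1a (2577 ± 75.7) and Dot1l (1978 ± 159) came next. Kdm3a and Kdm5b, at 1675 ± 210 and 1674 ± 25.6, could not be ranked. Suv39h2 moved from place 39 to place 9 among the 59 genes, Prdm4 from 22 to 7, Kmt2d from 10 to 39 and Kmt2b from 14 to 37. Ranks and the shares below depend on the merged length, which was 2861 bases for Kdm4d and 16555 for Kdm5b. Before division by length the spermatocyte mean of Kdm5b (42239) was above that of Kdm4d (20357). Ranks and shares with another exon length were not computed.

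**Figure D3:**
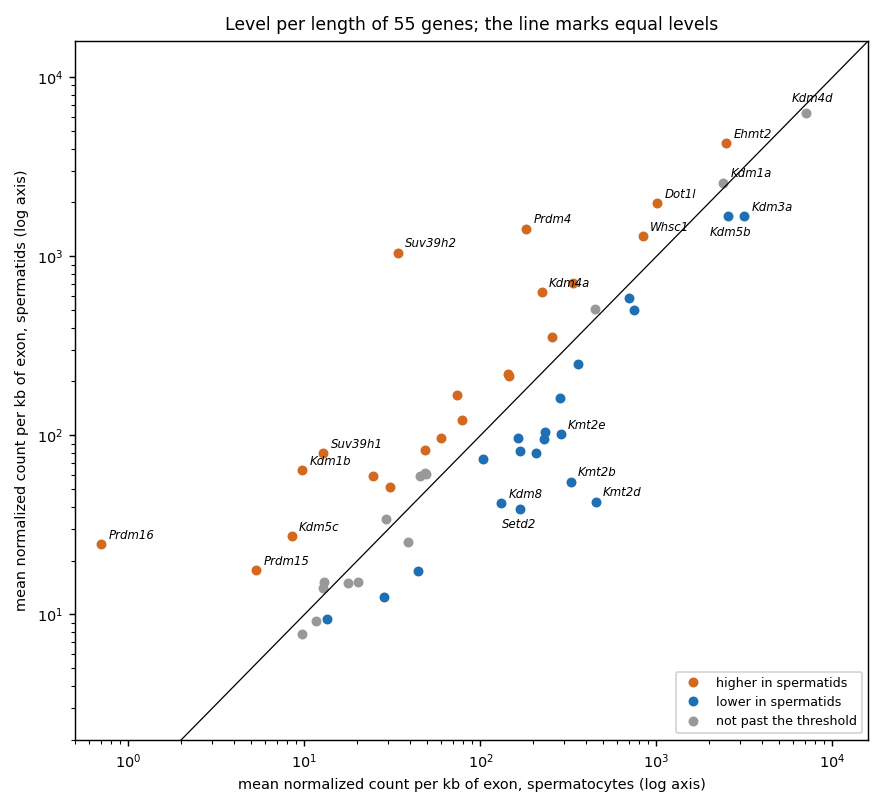
Mean normalized count per kilobase of exon in spermatocytes (x) and spermatids (y), both on log axes, for 55 of the tested genes. Kdm4d lies at the top right near the line of equal levels, Suv39h2 (34.0 and 1047) far above the line and Kmt2d (451 and 42.7) far below it.

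Shares of such levels within one library do not depend on the scaling between libraries. Methyltransferases made up 20.7% and 21.2% of the summed level of H3K9 writers and erasers in the spermatocyte samples and 36.9%, 41.4% and 37.5% in the spermatid samples. For H3K4 the writers' share was 22.7% and 23.3% in spermatocytes and 10.3%, 11.8% and 11.9% in spermatids. That share includes Kmt2e (means 286 and 102 per kb), which is without clear catalytic activity. For H3K36 it was 49.1% and 47.6% against 71.7%, 67.9% and 66.7%. The groups did not overlap for these 3 residues, with H3K9 and H3K36 writers taking more of the total in spermatids and H3K4 writers less. For H3K27 the shares overlapped, 75.4% and 72.9% against 78.2%, 73.2% and 73.0%. The sums leave out Setd1a, Setdb2 and enzymes of the same residues with other names, among them the H3K9 demethylase genes Phf2 (mean 14823 and 703) and Jmjd1c (11031 and 6076), the H3K36 writer gene Ash1l (7192 and 5966) and Uty (96.5 and 663), a relative of Kdm6a. The KDM4 genes were counted for H3K9 alone. The H3K36 sum thus leaves out Kdm4a (means 223 and 631 per kb), Kdm4b (73.8 and 167) and Kdm4c (44.2 and 17.5). The H3K36 share with them was not computed. All these sums count transcripts, not enzyme activity.

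Within paralog pairs, Suv39h2 made up 77.3% and 68.6% of the SUV39H level in spermatocytes and 94.0%, 91.3% and 93.7% in spermatids. Ezh2 was 68.9% and 65.8% of the EZH level against 88.8%, 87.5% and 87.4%. Ehmt2 was over 99% of the EHMT level in all 5 samples. Among the 5 KMT2 genes Kmt2d held 39.2% and 40.2% in spermatocytes and 12.2%, 12.3% and 17.4% in spermatids, and Kmt2a 4.68% and 5.84% against 27.8%, 36.5% and 29.7%. Kdm4d held 95.4% ± 0.577 (SD, n = 2) of the KDM4 level in spermatocytes and 88.5% ± 1.45 (SD, n = 3) in spermatids, while Kdm4a rose from 2.71% and 3.27% to 7.38%, 9.67% and 9.52%. Kdm6b (84.8% and 80.0% of the KDM6 level against 77.4%, 80.2% and 84.8%) overlapped between groups. With 2 against 3 samples no exact test of such a share can reach 0.05, and none was run.

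**Figure D4:**
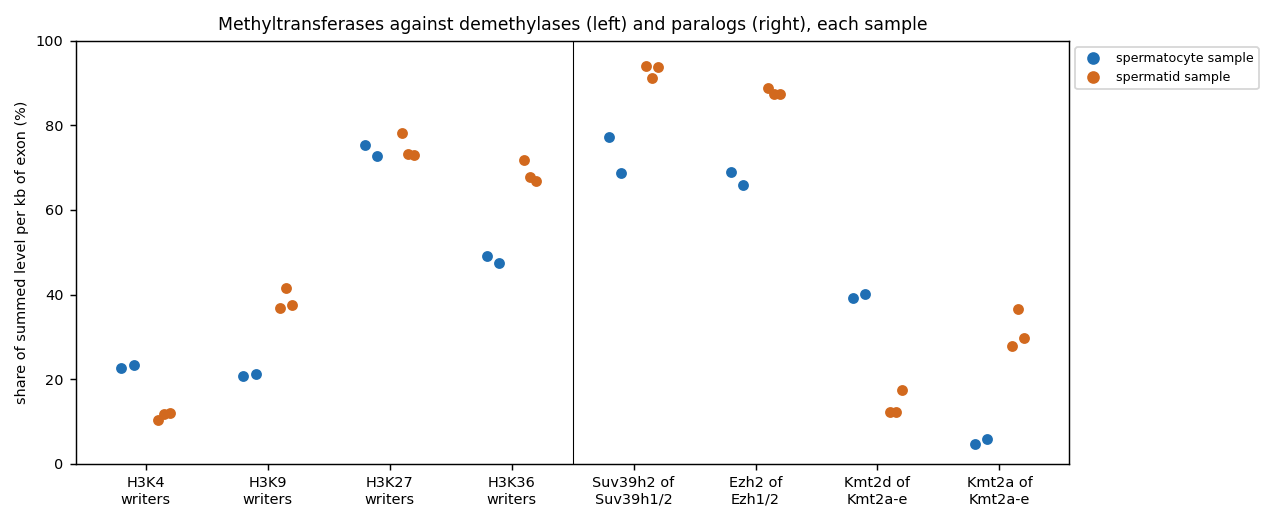
Share of the summed level per kilobase of exon, in percent, in each spermatocyte and spermatid sample: methyltransferases among methyltransferases and demethylases of 4 residues (left) and single genes among their paralogs (right). The groups are apart in every column but H3K27.

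All 3 X-linked genes of these families rose, where 63.0% of the 828 X-linked rows tested were called higher. Besides Suv39h1 and Kdm6a this is Kdm5c, an H3K4 demethylase gene, with 46.3 and 73.8 in spermatocytes and 186, 196 and 202 in spermatids (log2 fold change 1.72 ± 0.26, limma adjusted p = 0.00077). Nsdhl, also X-linked, had 65.7 and 106 against 310, 229 and 254. Between the spermatocyte samples, replicate 2 exceeded replicate 1 for each of the 3 genes, by 0.49 to 0.68 on the log2 scale. The median of this ratio was 0.24 over X-linked rows and -0.03 over all rows, and 11 of 13 Sertoli markers were higher in replicate 2. Kdm5d, the Y-linked relative of Kdm5c, was at 143 and 207 against 153, 137 and 128, with overlapping groups (limma adjusted p = 0.26), and its row lies wholly within that of Uty.

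Partner genes that do not match the name pattern were followed in lists by complex. Over all rows tested 40.6% were called higher and 36.5% lower, so the counts of these short lists are given as a description of their genes. Of 12 subunit genes of the H3K4 methyltransferase complexes 4 rose and 5 fell (median log2 fold change -0.06). Dpy30, a shared core subunit, rose from a mean of 1072 to 13195 (log2 fold change 3.62), while Rbbp5, another core subunit, fell from 835 to 245 (-1.77). Of 9 Polycomb repressive complex 2 genes 1 rose and 5 fell (median -0.72): Jarid2 rose from 1503 to 5951, Suz12 fell from 892 to 591, and Eed was at 2164 and 2278. Of 8 genes of H3K9 silencing complexes 3 rose and 3 fell (median -0.19), with Cdyl, a chromodomain corepressor gene, going from 579 to 24814 and Mphosph8, a HUSH subunit gene, from 19021 to 1960. Of 6 listed partners of DOT1L 3 rose and 3 fell (median -0.20), and Mllt10 fell from 50123 to 3786 while Mllt3 rose from 62.9 to 752. LSD1 partners had 3 of 6 higher and 1 lower (median 0.30).

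The lists that follow are short too and stand against the same shares of all rows, 40.6% higher and 36.5% lower. Of 11 related enzymes with other names 4 rose and 4 fell (median 0.09). The steepest change was that of Phf2, an H3K9 demethylase gene, from 14823 to 703 (log2 fold change -4.41). Of 9 arginine methyltransferase genes 2 rose and 5 fell (median -1.11): Carm1 rose from 1147 to 8152, and Prmt6 fell from 625 to 60.9. Of 7 genes that supply and recycle the methyl donor, 1 rose and 4 fell (median -0.57). Mat2a, which makes S-adenosylmethionine, fell from 3503 to 869, and Mtr, the gene of methionine synthase, from 2508 to 607. The partners named here were chosen after their values were seen.

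In bulk samples fewer cells of a type and less RNA per cell cannot be told apart. The rows of 39 of the 56 genes overlap another row of the table, and for 20 the strongest such row exceeded 10% of the gene's own mean. Kmt2e shares 874 bases with Srpk2 (means 5900 and 21778), Setd3 shares 512 with Ccnk (24062 and 38717) and Smyd2 shares 4161 with an unnamed row (231 and 1630), and the log2 fold changes of these 3 neighbours had the opposite sign to the gene's own. Suv39h2 shares 5297 bases with Dclre1c (306 and 362), and Setd2 shares 2087 with an unnamed row (264 and 24.5). Signs matched for both of these pairs and for Kdm1b with Dek. They also matched for Prdm8 with A730035I17Rik (5065 and 8924) and for Prdm10 with an unnamed row (713 and 234). The part of shared reads in the changes was not tested. The 19 genes with at least 10000 bases of exons had a median log2 fold change of -0.31 and the 37 shorter ones 0.29, while the 1517 rows of that length had 0.34. Across the 56 genes the log2 fold change and the log2 exon length had Pearson's r = -0.13 and Spearman's rho = -0.09, given as a description.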

How the data were processed

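Messenger RNA of 2 spermatocyte and 3 spermatid samples was sequenced from stranded libraries, per the labels' protocols. Values deposited are a normalized signal, that is, counts of each gene scaled by DESeq size factors, per the file headers. The submitters' processing notes name DESeq and STAR 2.4.0, SAMtools, Picard, FastQC and mm10. How genes were counted, and with which strand setting, is not given in the sources used here. Within 0.001, 100% of values in each of the 5 columns were whole multiples of 1 read's value, so whole reads were recovered.

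Groups follow the source labels. Replicate numbers follow accession order and only name samples. Rows with a mean of at least 10 (28370 of 56324) were tested on log2(value + 1) with limma 3.58.1 (eBayes with trend, R 4.3.3), adjusted by Benjamini-Hochberg over all of them. Fold changes on this scale understate low genes; ratios of means are given as folds. The members, classes and partner lists were chosen with earlier results of these data known. Values are given for the 2 highest members of each class, members with a called log2 change of at least 2, and paralogs. Some genes that the name pattern matches are counted but not reported here, or were left out by the rule. edgeR 4.0.16 (quasi-likelihood) and DESeq2 1.42.0 were run on recovered reads with the authors' size factors. The limma step was tested on simulated counts. Exon lengths came from GENCODE vM21 by symbol, or by RefSeq synonym for 5 genes. Replicates of a group differed by more than sampling noise. Python 3.11.15, pandas 2.3.3, numpy 2.4.6 and matplotlib 3.10.9 were used. Floors of 3 reads cover counting error only.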

Additional observations from a re-analysis of the deposited data

How the results depend on the processing

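Pseudocounts of 0.5 and 10, TMM factors, edgeR and DESeq2 changed no direction or call of the 59 tested rows, though Prdm16, low in spermatocytes, moved from 5.01 to 3.87 with a pseudocount of 10. The spermatid marker percentages without spermatid replicate 1 were computed after seeing the data. The number of rows higher in spermatids, 24, became 12 with libraries rescaled to equal totals and 13 after quantile normalization. The number lower, 21, became 28 and 27, and the shares of all rows under these settings were not computed. Leaving out 1 replicate at a time gave 17 to 25 higher and 17 to 21 lower, with 11 calls lost without spermatocyte replicate 1 and 7 without spermatocyte replicate 2. With 1 spermatocyte sample left, that sample is assumed to vary like the spermatids. Signs turned for 13 rows. With equal totals the log2 fold changes were -0.049 (Kdm6b), -0.40 (Nsd1), -0.012 (Whsc1), -0.54 (Kdm1a), -0.0014 (Kdm5a), -0.51 (Setd7), -0.40 (Suv420h1), -0.088 (Suv420h2), -0.17 (Prdm2), -0.32 (Prdm6), -0.47 (Prdm8), -0.26 (Setd4) and -0.35 (Setd6). After quantile normalization they were -0.185 (Nsd1), -0.13 (Whsc1), -0.64 (Kdm1a), -0.29 (Setd7), -0.185 (Suv420h1), -0.053 (Prdm2), -0.11 (Prdm6), -0.35 (Prdm8), -0.032 (Setd4) and -0.14 (Setd6). Leaving out 1 replicate at a time gave -0.0505 (without spermatocyte replicate 1) to 0.31 for Setd7. The cause was not tested. With either of these scalings, Kdm5d, Kdm4d, Prdm10, Smyd3, Smyd4 and Kdm1a were called lower, and Suv420h1 with equal totals alone. With no filter on low values Suv420h1 gained a call. A mean of at least 100 left 56 rows, with no call changed. No paired analysis was possible because the labels carry no replicate numbers shared between groups.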
